A study of Homo sapiens with 8 samples.

Results

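Ribosome biogenesis genes encode the proteins that transcribe, cut, modify and fold ribosomal RNA and build it into the 2 ribosomal subunits. A set of 39 such genes was chosen by name, out of 20037 protein-coding genes placed on the main chromosomes, and for each the deposited CUT&RUN peaks that overlapped its hg38 RefSeq span or the 2 kb on either side were collected from all 8 peak lists of the series. CUT&RUN directs a nuclease with an antibody to a protein on chromatin and sequences the DNA that is released. The cells were HCT-116, a human colorectal carcinoma line. BRG1, the ATPase of SWI/SNF chromatin remodelling complexes, and Flag-tagged wild-type actin were each profiled in 1 library of control cells (labelled SETD3 CT) and in 2 libraries of SETD3 knockout cells, KO1 and KO2. SETD3 is the methyltransferase that modifies a histidine of actin. The other 2 libraries were IgG libraries of control cells, an antibody with no target on chromatin, 1 of them labelled Flag Empty. How Flag-actin was expressed is not stated, nor whether the KO libraries came from 1 clone or several. With 1 control library and 2 knockout libraries per antibody no test between groups was made, and counts of genes are set beside the same count over all protein-coding genes.

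Ribosome production starts in the nucleolus, where RNA polymerase I transcribes a long precursor that small nucleolar ribonucleoproteins (snoRNPs) modify and that the small subunit processome and the large subunit assembly factors cut and fold. Growing and tumour cells make many ribosomes, and many genes of this pathway carry E-box sequences in their promoters, to which the transcription factor MYC and its relatives bind. SWI/SNF complexes slide and evict nucleosomes at promoters and enhancers, and actin is itself a subunit of these complexes.

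Promoters are shown for 5 members whose highest-ranked BRG1 peak outside IgG in control cells lay over the promoter. These peaks ranked highest among such members with a listed promoter. RRS1, whose peak ranked between those of RRP9 and UTP3, had no listed promoter. Each run is the RefSeq sequence (GRCh38.p14) before the listed transcription start, 5′ to 3′ on the strand of the gene, and capitals mark the E-box CACGTG or the ETS core CCGGAAG, searched on both strands. NOP10 is chr15:34343137-34343314 (minus strand), RRP9 chr3:51941905-51942154 (minus), UTP3 chr4:70688282-70688531 (plus), NHP2 chr5:178153886-178154135 (minus) and NCL chr2:231464485-231464734 (minus). The control BRG1 peak covered every printed base of the first 4 and 236 of the 250 bases of NCL. The NOP10 run holds an E-box 170 and another 11 bases before the start and an ETS core on the other strand at 42 bases. RRP9 holds an ETS core at 231 bases, and its E-box at 5 bases runs over the start and is not complete in the run. UTP3 holds an ETS core at 21 bases, and neither motif lies in the printed runs of NHP2 and NCL.
NOP10: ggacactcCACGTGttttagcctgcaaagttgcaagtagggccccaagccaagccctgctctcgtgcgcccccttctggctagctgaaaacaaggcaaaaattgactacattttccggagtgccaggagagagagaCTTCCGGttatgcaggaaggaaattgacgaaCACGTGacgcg
RRP9: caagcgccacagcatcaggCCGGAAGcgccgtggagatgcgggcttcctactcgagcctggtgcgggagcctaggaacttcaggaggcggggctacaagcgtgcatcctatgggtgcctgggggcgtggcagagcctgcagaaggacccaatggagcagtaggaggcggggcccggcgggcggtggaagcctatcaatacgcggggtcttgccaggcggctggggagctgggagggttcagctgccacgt
UTP3: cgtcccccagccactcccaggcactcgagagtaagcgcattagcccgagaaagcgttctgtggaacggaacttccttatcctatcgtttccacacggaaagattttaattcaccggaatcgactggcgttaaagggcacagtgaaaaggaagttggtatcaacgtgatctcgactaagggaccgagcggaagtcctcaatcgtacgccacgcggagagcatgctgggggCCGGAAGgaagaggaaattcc
NHP2: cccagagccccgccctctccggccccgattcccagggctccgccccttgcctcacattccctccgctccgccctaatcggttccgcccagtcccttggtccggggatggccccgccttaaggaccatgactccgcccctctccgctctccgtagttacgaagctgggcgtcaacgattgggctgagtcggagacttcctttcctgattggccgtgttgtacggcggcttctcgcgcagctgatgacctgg
NCL: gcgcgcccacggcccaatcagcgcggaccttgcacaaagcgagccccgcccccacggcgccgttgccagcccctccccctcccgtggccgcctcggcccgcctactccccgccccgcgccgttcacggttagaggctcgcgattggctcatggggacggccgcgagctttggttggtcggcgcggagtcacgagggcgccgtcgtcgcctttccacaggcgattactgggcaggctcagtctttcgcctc

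A promoter window of 250 bases before to 50 after the start was listed for 33 of the 39 members. The table used has no entry for NOP58, NOLC1, TCOF1, RRS1, BOP1 and RRP12. The E-box was in 15 of the 33 windows (45.5%), against 10.9% of the 15843 protein-coding genes with a window. Of the 10 members with a control BRG1 peak outside IgG over the window, 5 held it (BYSL, GAR1, NOP10, RRP9 and UTP20). The ETS core was in 12 of 33 windows (36.4%), against 16.5% of all. It was in 4 of those 10 (GAR1, NOP10, RRP9 and UTP3). These matches describe letters in a window and not binding by any factor.

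The 6 antibody lists held 23784 to 53270 peaks on chromosomes 1 to 22, X and Y, and the IgG lists 20303 (Flag IgG) and 24755. The BRG1 control list was the longest, at 53270, against 23784 in KO1 and 32038 in KO2. The Flag-actin lists held 38902, 27249 and 35892. Peaks overlapping either IgG list made up 36.9% of the BRG1 control list, 71.4% of KO1 and 60.1% of KO2, and 34.5%, 55.5% and 48.5% of the Flag-actin lists in the same order. Outside IgG, 33618, 6792 and 12795 BRG1 peaks and 25473, 12124 and 18481 Flag-actin peaks remained. Heights below 200 steps were whole multiples of 1 unit per list, here called a step. The step ranged from 4.38 (BRG1 control) to 21.5 (Flag-actin control), so heights are given in steps of their own list and not compared in signal between lists. No source used here gives the read depth of a library. As a check of the cell type, BRG1 control peaks outside IgG lay at 6 of 10 genes that mark colon epithelium and at 5 of 10 that mark other tissues, so presence of a peak did not separate these lists.

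In lists of unequal length, BRG1 peaks lay at most member genes in control cells and at fewer in either knockout list. The control list held a BRG1 peak at 29 of 39 members (74.4%, against 61.9% of all genes), the KO1 list at 8 (20.5%, against 34.9%) and the KO2 list at 13 (33.3%, against 44.6%). Outside IgG the counts were 24 (61.5%, against 52.4%), 1 (2.56%, against 15.7%) and 5 (12.8%, against 28.3%). In the full lists the members thus stood above all genes in control and below them in both knockouts, with IgG-overlapping peaks kept and removed. With each list shortened to 23784 peaks by total signal, control, KO1 and KO2 held peaks at 13, 8 and 11 members. The 13 were 6 in control alone (15.4%, against 7.71% of all genes) and 7 in control and a knockout (17.9%, against 32.5%). By height the counts were 12, 8 and 10. The 12 were 3 in control alone (7.69%, against 3.73%) and 9 in control and a knockout (23.1%, against 30.5%). By total signal and by height the control share of members was not above that of all genes. With 6792 peaks outside IgG per list the counts were 8, 1 and 3, and the control share was slightly above. The 8 were 6 in control alone (15.4%, against 7.04%) and 2 in control and a knockout (5.13%, against 11.4%). For these shortened lists no share of all genes is given for KO1 or KO2, so nothing is read from the knockout counts. Member genes are shorter than genes at large, with a median span of 16.3 kb against 24.1 kb.

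**Figure D1:**
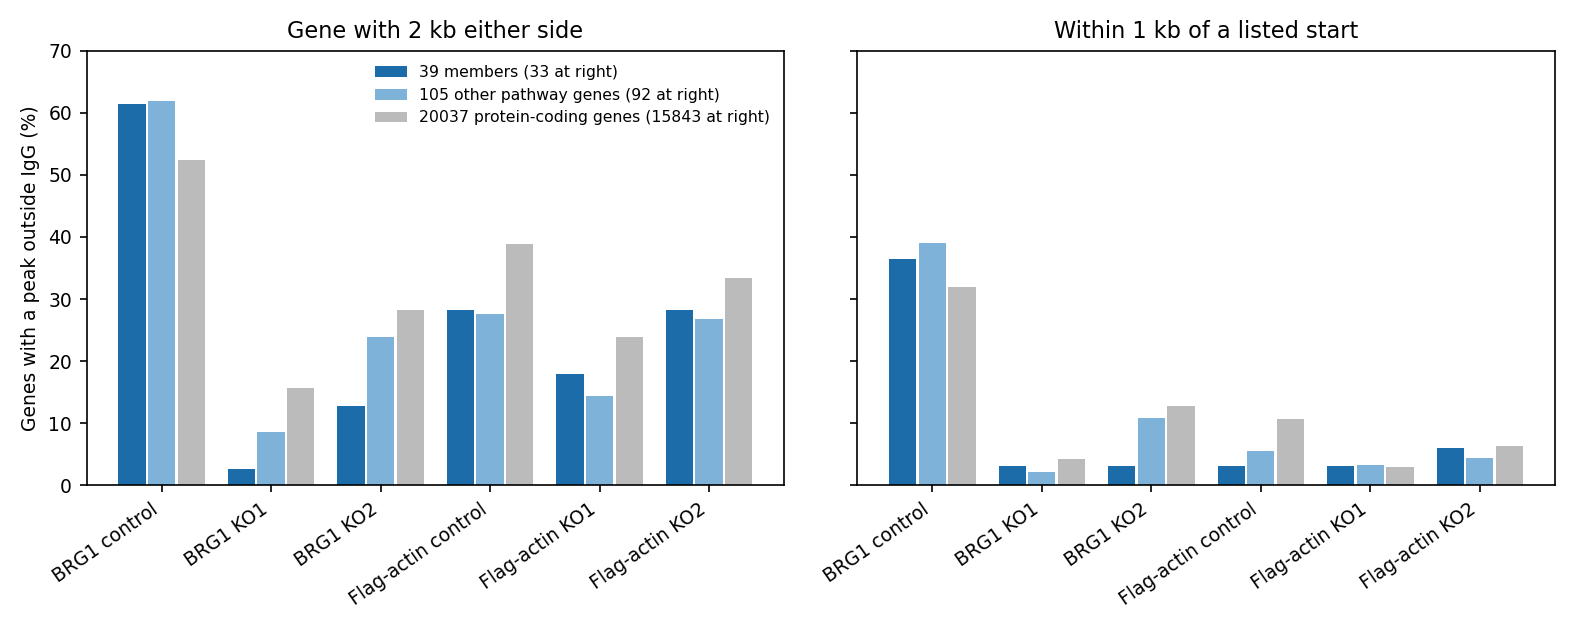
Share of genes (%) with at least 1 peak outside IgG in each antibody list (1 library each, no error bars), for the 39 members, 105 other ribosome biogenesis genes and 20037 protein-coding genes, over the gene with 2 kb either side (left) and within 1 kb of a listed start (right). For BRG1 the members' bar stands above that of all genes in control cells, at 61.5% against 52.4%, and below it in KO1 and KO2.

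Sorted by pattern, 17 members had a BRG1 peak in control cells and in neither knockout list (43.6%, against 18.5% of all genes). Outside IgG these were 19 (48.7%, against 25.1%): NCL, NPM1, GNL3, FBL, NOP58, RRP9, GAR1, NHP2, NOP10, POLR1A, UBTF, NOP14, UTP4, UTP20, BYSL, NOB1, RRP12, BOP1 and MRTO4. A peak in control cells and in either knockout list was found at 12 (30.8%, against 43.4%), and outside IgG at 5, which were NOLC1, TCOF1, UTP3, NOP16 and RRS1 (12.8%, against 27.3%). No member had BRG1 peaks in both knockout lists and not in control, against 0.858% of all genes, or 0.744% outside IgG. Control and both knockout lists held a peak at 7 (17.9%, against 29.9%), and outside IgG at none (against 9.15%). UTP15 and NOP2 had a peak in a knockout list alone (5.13%, against 5.36%), and outside IgG NOP2 alone did (2.56%, against 6.83%). List length moved with this pattern: when each BRG1 list was shortened to the 23784 peaks of the shortest by total signal, 6 members were found in control alone (15.4%, against 7.71% of all genes), and by height 3 (7.69%, against 3.73%). Shortened to 6792 after removing IgG-overlapping peaks, an alternative chosen after seeing the data, the lists left 6 (15.4%, against 7.04%).

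Genes were then compared at exactly 1 control peak and at 2 or more, a group in which peak numbers were not matched. Of the 24 members with control BRG1 peaks outside IgG, 20 had exactly 1, and 15 of these (75%) had none in either knockout list, against 62.9% of the 5215 such genes. The other 4 members had 2 or more control peaks (NCL 2, POLR1A 2, UBTF 4 and UTP20 5). All 4 lacked a knockout peak outside IgG, as did 33% of all genes with 2 or more. With IgG-overlapping peaks counted this turned round: of the 6 members with 2 or more control peaks, these 4 among them, 0 lacked a knockout peak, against 16.6% of all such genes, and of the 23 with exactly 1, 17 lacked one (73.9%, against 48.8%). Peak by peak, 1 of the 33 control peaks outside IgG overlapped a KO1 peak (3.03%, against 7.11% of 22486 at all genes) and 4 overlapped a KO2 peak (12.1%, against 14.4%), counting knockout peaks whether or not they met IgG. Among control peaks with a total signal at or above the lowest of the knockout list, the counts were 0 of 11 for KO1 (against 15.8%) and 3 of 16 for KO2 (18.8%, against 22.3%). That cutoff is in deposited units, whose step was 4.38 in BRG1 control, 11.5 in KO1 and 9.09 in KO2. It does not match the lists in steps. At single peaks the KO2 shares were thus close to those of all genes.

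**Figure D2:**
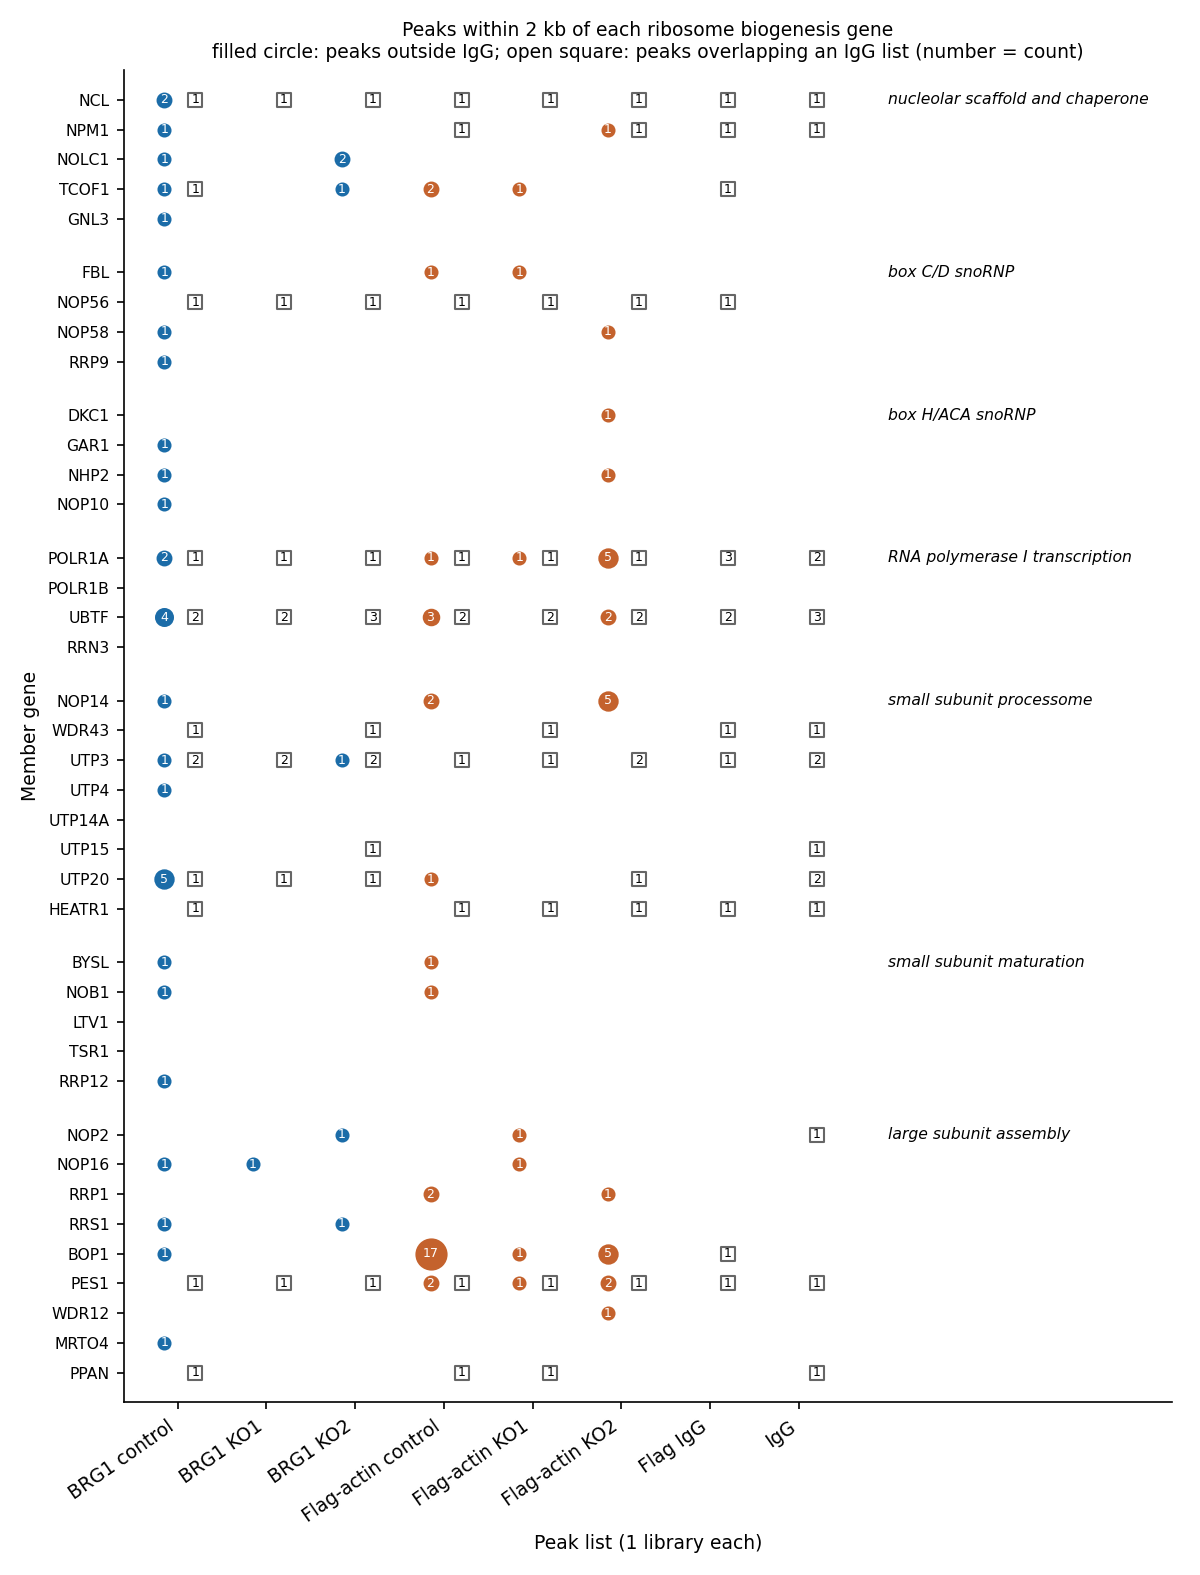
Number of peaks at each of the 39 members (rows, by role) in each of the 8 lists (columns); filled circles are peaks outside IgG (larger for more peaks) and open squares peaks that overlap an IgG list. The BRG1 control column holds filled circles at 24 members, KO1 at 1 and KO2 at 5, while the open squares recur across columns at the same genes.

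By role, BRG1 control peaks outside IgG were found at all 5 nucleolar scaffold genes, at 3 of 4 box C/D snoRNP genes, 3 of 4 box H/ACA genes, 2 of 4 RNA polymerase I genes, 4 of 8 small subunit processome genes, 3 of 5 small subunit maturation genes and 4 of 9 large subunit assembly genes, beside 52.4% of all genes. In KO1 the 1 member lay in the large subunit group, and in KO2 there were 2 scaffold, 1 processome and 2 large subunit genes. The snoRNP, RNA polymerase I and small subunit maturation genes had none in either knockout list outside IgG, where all genes had 15.7% (KO1) and 28.3% (KO2). With 4 to 9 genes a group, nothing is read from these counts about a role.

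Nucleolar scaffold proteins organise the compartment in which ribosomes are made. NCL encodes nucleolin, which binds ribosomal RNA and its chromatin. Its BRG1 peak in control cells (chr2:231464451-231464720, 270 bp) covered the listed start and reached 11 steps. The total signal of that peak was at or above that of 66.3% of the list (percentile 66.3). Every percentile below is of total signal within the peak's own list. A second NCL peak of 11 steps lay 1331 bp past the other end of the gene, at percentile 29.0. Neither knockout list held an NCL peak outside IgG. NPM1, the nucleolar chaperone nucleophosmin, had 1 control peak (chr5:171393621-171393660) inside the gene, 5772 bp from its start. That peak was 40 bp wide and 36 steps high, at percentile 23.8, and lay just below a site of both IgG lists (chr5:171393781-171393960).

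NOLC1 and TCOF1 encode related nucleolar phosphoproteins that bind RNA polymerase I. NOLC1 had a control peak of 15 steps over its lower end (chr10:102152161-102152460, percentile 62.7). KO2 held an overlapping peak of 10 steps (chr10:102152091-102152310, percentile 56.7) and another just beside it (percentile 19.4), and KO1 held none. NOLC1 is thus a member whose BRG1 peak was listed in control and in 1 of 2 knockout libraries. TCOF1 had peaks in the same 2 lists at different places inside the gene, chr5:150396401-150396530 in control (9 steps) and chr5:150394011-150394100 in KO2 (12 steps). GNL3, the GTPase nucleostemin, had 1 control peak of 10 steps near its far end, at percentile 11.4.

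Among box C/D snoRNP genes, whose particles guide methylation of ribosomal RNA, RRP9 had the highest-ranked BRG1 peak outside IgG. RRP9 binds the snoRNA that directs the first cuts of the precursor. Its control peak (chr3:51941871-51942290, 420 bp) covered the start, reached 12 steps and lay at percentile 70.9, and its edge was 73 bp from the start of PARP3, the neighbouring gene. FBL encodes fibrillarin, the methyltransferase of these particles. The FBL control peak (chr19:39844221-39844410, 14 steps, percentile 54.6) lay inside the gene, 1969 bp from the start. NOP58, a core protein that pairs with NOP56, had a control peak of 12 steps 128 bp inside its lower end, at percentile 20.2. At NOP56 every peak in the 6 antibody lists overlapped a single IgG site. None of RRP9, FBL and NOP58 had a BRG1 peak in either knockout list.

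Box H/ACA snoRNPs convert uridine to pseudouridine and share 4 core proteins, and 3 of their genes had a control BRG1 peak at the promoter. NOP10, the smallest core protein, had the highest-ranked BRG1 peak of all members outside IgG: chr15:34342921-34343340, 420 bp, 13 steps, percentile 76.1. The NOP10 peak covered the start and also the start of NUTM1, the gene that faces it. NHP2 had a control peak of 330 bp over its start (chr5:178153831-178154160, 12 steps, percentile 66.3). GAR1 had 1 of 11 steps that ended 50 bp before its start and covered that of GAR1-DT. DKC1, the pseudouridine synthase itself, had no BRG1 peak in any of the 3 lists. No H/ACA gene had a BRG1 peak in KO1 or KO2, with or without IgG.

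POLR1A encodes the largest subunit of RNA polymerase I and UBTF the factor that bends the ribosomal DNA promoter. POLR1A had a control peak of 9 steps over its start (chr2:86105551-86105900, percentile 46.0) and a higher-ranked one of 12 steps 25646 bp inside (chr2:86080011-86080240, percentile 63.5). UBTF had 4 control peaks of 8 to 12 steps, the highest-ranked (chr17:44221281-44221530, percentile 53.2) at -399 bp from its nearest listed start (negative is before the start) and over the start of ATXN7L3-AS1. Neither gene had a knockout BRG1 peak outside IgG, although 1 UBTF control peak past the end of the gene (chr17:44204491-44204660, 8 steps) overlapped a KO2 peak that also met an IgG peak. POLR1B, another core subunit, and RRN3, which brings the polymerase to its promoter, had no peak in any of the 8 lists.

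The small subunit processome folds the first part of the precursor. UTP3 was its member with the highest-ranked control peak, over the start (chr4:70688221-70688590, 370 bp, 11 steps, percentile 68.0). KO2 held an overlapping peak of 7 steps (chr4:70688151-70688420, percentile 46.1), so UTP3 was 1 of 4 members whose control peak overlapped a knockout peak with both outside IgG, the others being NOLC1, NOP16 and RRS1. UTP20, a scaffold protein encoded by the longest member gene (106514 bp), had 5 control peaks outside IgG spread along the gene. NOP14 and UTP4 had 1 each, at percentiles 3.68 and 31.3, 24056 and 37422 bp from their listed starts. WDR43 and HEATR1 had control peaks at IgG sites alone. UTP15 had none in control, and UTP14A had none in any list.

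Small subunit maturation factors finish the particle in the nucleus and cytoplasm. BYSL had a control peak of 10 steps (chr6:41920881-41921260, percentile 58.3) at -239 bp from its nearest listed start and over the start of MED20. NOB1, the nuclease that makes the final cut of the small subunit RNA, had one of 12 steps ending 115 bp before the gene (percentile 36.1). RRP12, an export factor, had one of 9 steps inside the gene (percentile 29.0). None of the 3 had a BRG1 peak in KO1 or KO2. LTV1 and TSR1, which leave the particle late, had no peak in any list.

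Among the 9 large subunit assembly genes, NOP16 had a BRG1 peak outside IgG in KO1, and RRS1 and NOP2 in KO2. RRS1, which helps dock a small ribosomal RNA with its proteins, had a control peak of 12 steps over its lower end (chr8:66428691-66429020, percentile 69.5). KO2 held an overlapping peak of 7 steps there (chr8:66428841-66428980, percentile 11.1). The NOP16 peak in KO1 was the 1 such peak at any member (chr5:176388951-176389080, 9 steps, percentile 33.6). It overlapped by its edge a control peak of 18 steps (chr5:176389071-176389220, percentile 24.4), and both lay nearer to the start of HIGD2A than to that of NOP16. NOP2, an RNA methyltransferase, had a KO2 peak of 7 steps inside the gene (chr12:6559851-6559970, percentile 12.7) and none in control. BOP1 and MRTO4 had 1 control peak each, of 9 and 12 steps. PES1 and PPAN had control peaks at IgG sites alone, and RRP1 and WDR12 had no BRG1 peak.

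Among members with a listed start, the 5 highest-ranked BRG1 control peaks covered it, while the share of members with a peak near the start was close to that of all genes. Of the 27 peaks outside IgG at members with a listed start, 13 lay within 1 kb of it (48.1%, against 33.1% of 20105 at all genes). By gene, 12 of 33 members had such a peak in the control list (36.4%, against 31.9%), while KO1 had 1 (3.03%, against 4.29%) and KO2 had 1 (3.03%, against 12.8%). Peaks at 7 members covered the start itself: NCL, NHP2, NOP10, POLR1A, RRP9, UTP20 and UTP3. At 4 members the peak near the start lay nearer to that of another gene: BYSL, GAR1, NOP16 and UBTF. Of the 10 members with the highest-ranked peaks, POLR1A and FBL had that peak more than 1 kb from the start, and RRS1 and NOLC1 had no listed start.

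**Figure D3:**
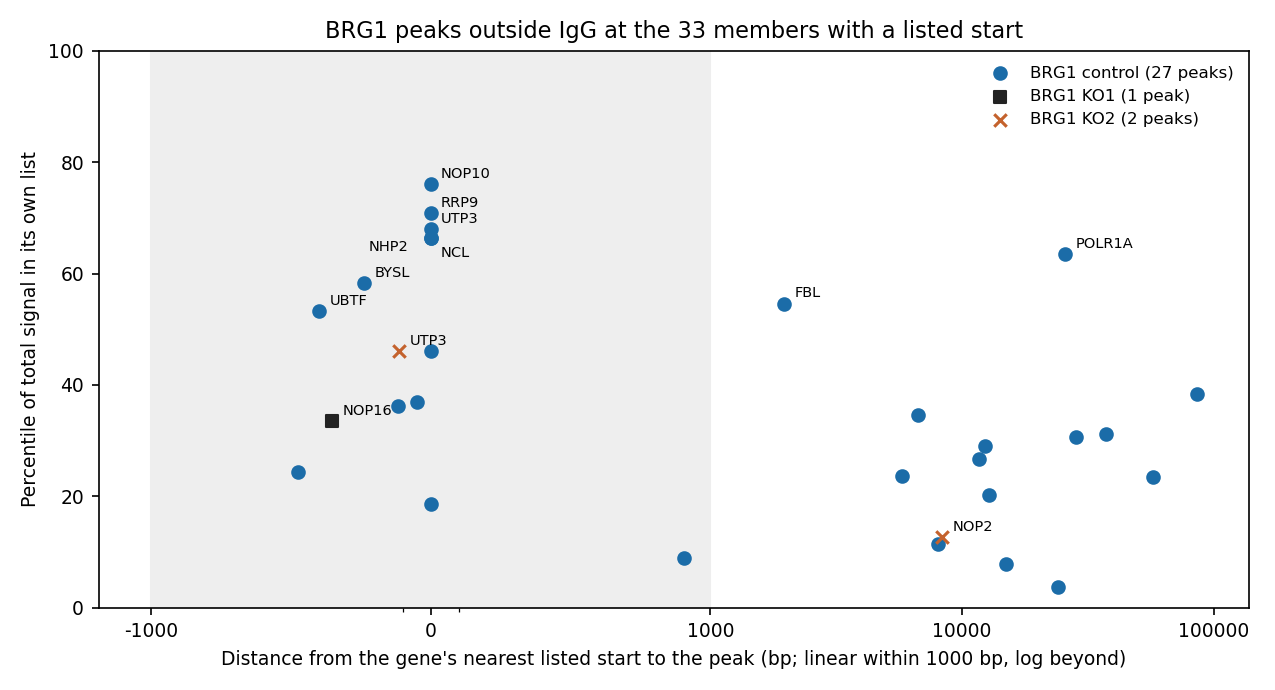
BRG1 peaks outside IgG at the 33 members with a listed start: distance from the start to the nearest edge of the peak (x, bp, negative before the start, linear to 1000 bp and log beyond; shading marks 1 kb) against the percentile of total signal in the peak's own list (y). The 5 highest-ranked control peaks, NOP10 to NCL, all cover a start, and the knockout lists add 1 peak (KO1) and 2 peaks (KO2).

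These BRG1 peaks were low and broad beside those that overlapped IgG. The 33 control BRG1 peaks outside IgG at members were 40 to 420 bp wide (median 220) and 7 to 36 steps high (median 11), with a median percentile of 31.3 against 36.5 for all peaks of that list outside IgG. The 13 that overlapped IgG were narrower (median 50 bp) and reached 2568 steps, with a median percentile of 74.2. The lowest total signal listed was 4164 in BRG1 control, 6228 in KO1 and 5182 in KO2, in deposited units. The step of these lists was 4.38, 11.5 and 9.09, so these floors do not order the lists by sensitivity. Whether signal under these floors remained at the members in the knockouts was not tested, since the lists hold only what passed the caller.

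**Figure D4:**
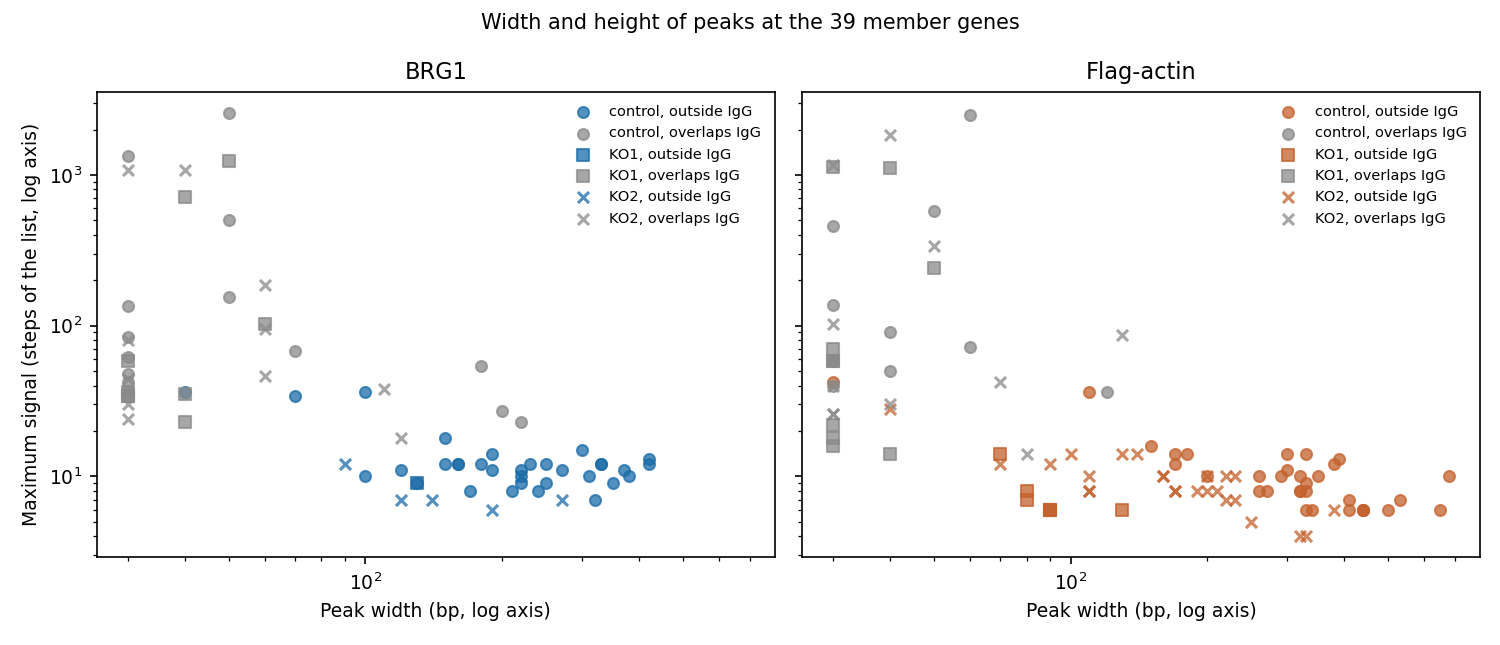
Width (x, bp, log axis) and height (y, steps of the list, log axis) of every BRG1 (left) and Flag-actin (right) peak at the members, by list (marker shape) and by overlap with IgG (grey). Peaks outside IgG in BRG1 control have a median of 220 bp and 11 steps, and the grey IgG-overlapping peaks are narrower and reach above 1000 steps.

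IgG itself gave peaks at some members, at a share of genes close to the background. Antibody peaks overlapped many of these sites, but at BOP1 and NOP2 none met the IgG peak. Either IgG list had a peak at 15 members (38.5%, against 39% of all genes), at 22 sites in all, and 6 of them were in all 8 lists. These 6 were at NCL (chr2:231456451-231456510, over the snoRNA gene SNORD20), PES1 (chr22:30581681-30581830), POLR1A (chr2:86023001-86023060), UBTF (chr17:44205251-44205300 and chr17:44217701-44217760) and UTP3 (chr4:70692291-70692350). The UTP3 site lay in the flank, 1740 bp past the end of the gene. Across the 6 antibody lists the POLR1A site ranked at percentiles 91.3 to 99.5 and the first UBTF site at percentiles 94.4 to 97.5. These 2 sites were thus among the highest-ranked peaks of each list, in SETD3 control and knockout alike. All 7 members with a BRG1 peak in all 3 lists (NCL, NOP56, POLR1A, UBTF, UTP3, UTP20 and PES1) had it in KO1 through a peak that overlapped IgG. The NOP56 site was in 7 lists and the UTP20 site in 5, at percentiles 23.7 to 53.7. Flag IgG peaks lay at 11 members (28.2%, against 31.4% of all genes) and IgG peaks at 12 (30.8%, against 33.2%).

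Flag-actin peaks were found at 14 to 17 members in each of the 3 lists, shares somewhat below those of all genes. Whether the shorter span of the members (median 16.3 kb against 24.1 kb) accounts for this was not tested. The control list held Flag-actin peaks at 17 members (43.6%, against 50.3%), KO1 at 14 (35.9%, against 39%) and KO2 at 16 (41%, against 47.4%). Outside IgG the counts were 11 (28.2%, against 38.9%), 7 (17.9%, against 23.8%) and 11 (28.2%, against 33.4%). BYSL and NOB1 were the 2 members with a Flag-actin peak in control alone (5.13%, against 10.7%), and outside IgG UTP20 joined them (7.69%, against 13.8%). Without KO1 that count was 5 in place of 2 (12.8%, against 14% of all genes), and without KO2 it was 6 (15.4%, against 19%). The share of all genes rose as well, and that of the members stayed below it. Control and either knockout shared 15 members (38.5%, against 39.6%), and outside IgG 8 (20.5%, against 25.1%). All 3 lists held a peak at 8 members (20.5%, against 28.1%), and outside IgG at 3, which were POLR1A, BOP1 and PES1 (7.69%, against 10.1%). A knockout list alone held one at 7 (17.9%, against 15.1%), and also at 7 outside IgG (17.9%, against 18.6%). No member had peaks in both knockout lists and not in control (against 3.54%, or 3.51% outside IgG).

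The 8 members with Flag-actin peaks outside IgG in control and a knockout were TCOF1, FBL, POLR1A, UBTF, NOP14, RRP1, BOP1 and PES1, and in most the peaks lay at different places. TCOF1 had 2 control peaks of 10 and 8 steps and 1 KO1 peak of 6 steps 2953 bp from the other end of the gene. FBL had 1 control peak inside the gene (14 steps, percentile 49.7) and 1 KO1 peak past its end (6 steps, percentile 24.4), 49 bp from the start of DYRK1B. POLR1A had 1 control peak (8 steps, percentile 11.9), 1 KO1 peak of 14 steps and 5 KO2 peaks of 5 to 14 steps, none overlapping another. UBTF had 3 control peaks, of 14, 8 and 16 steps, the last (chr17:44220931-44221080) at -49 bp from its start and 201 bp from the nearest BRG1 control peak, and 2 KO2 peaks elsewhere. These 4 genes share a call by gene and not by site.

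NOP14 differed from them. Its widest Flag-actin control peak (chr4:2955181-2955860, 680 bp, 10 steps) had the highest percentile of any Flag-actin peak at a member outside IgG, 83.4, and overlapped 1 of 5 KO2 peaks (chr4:2955341-2955540, 8 steps, percentile 44.6). A second NOP14 control peak reached 36 steps at a width of 110 bp. RRP1, which acts in large subunit processing, had 2 control peaks of 12 steps (percentiles 25.0 and 67.7) and 1 KO2 peak of 14 steps. PES1 had control peaks of 11 and 10 steps, a KO1 peak of 6 steps over a listed start and 2 KO2 peaks in the flanks. Over all members 3 of the 33 control Flag-actin peaks outside IgG overlapped a KO2 peak (9.09%, against 4.47% of 17672 at all genes), 2 in BOP1 and 1 in NOP14, and 0 of 33 overlapped a KO1 peak (against 2.23%).

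BOP1, which forms a complex with PES1 and WDR12 in large subunit assembly, held 17 of the 33 Flag-actin control peaks outside IgG. They were 170 to 650 bp wide (median 390) and 6 to 14 steps high (median 7), and 13 of the 17 lay inside the gene (chr8:144262045-144291438). KO1 held 1 such peak and KO2 5. Per 10 kb the gene with its flanks held 5.09 control peaks, against 0.0834 over the genome, 2.24 in the 500 kb below it and 2.28 in the 500 kb above, so the neighbourhood was dense as well. Of the 20037 genes, 45 had a higher density and 65 more peaks. KO1 and KO2 had 0.299 and 1.5 peaks per 10 kb at BOP1. The neighbourhood was sparser too, at 0.44 (KO1) and 0.9 (KO2) in the 500 kb below and 0.2 and 0.7 in the 500 kb above. Of all genes, 1600 had a higher density than BOP1 in KO1 and 357 in KO2. The window also reaches into MROH1, SCX and HSF1. With BOP1 left out, the other 10 members had 16 Flag-actin control peaks.

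**Figure D5:**
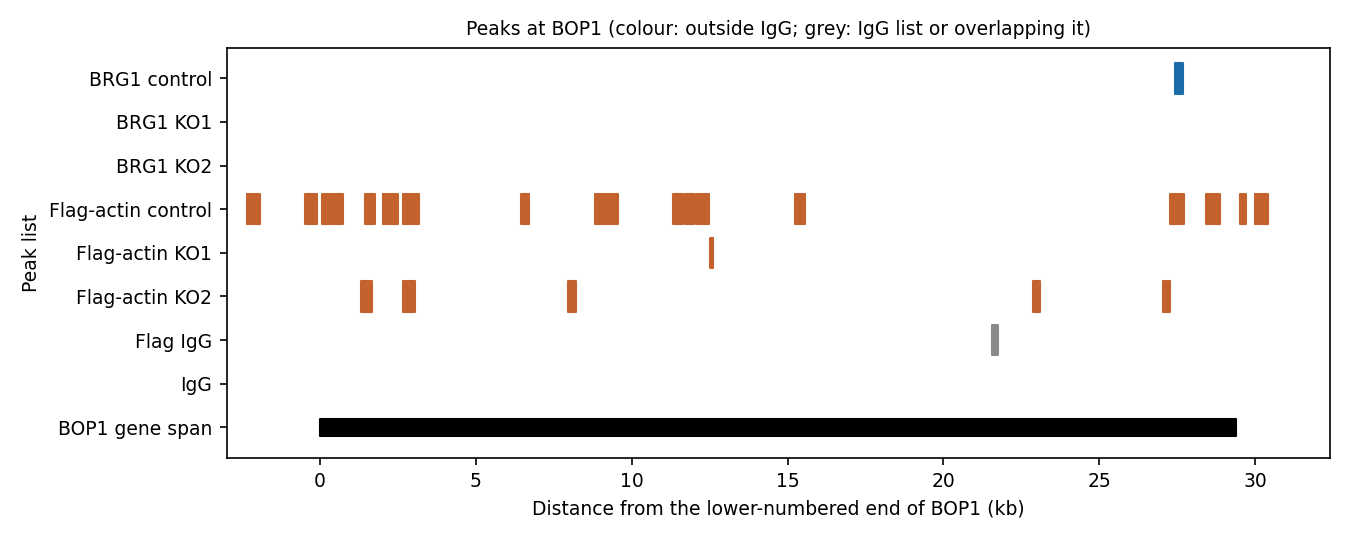
Peaks at BOP1 in the 8 lists (1 line each, drawn to scale in kb from the lower-numbered end of the gene), coloured outside IgG and grey for IgG. Flag-actin control shows 17 peaks along the window, KO1 1 and KO2 5, and BRG1 1 in control alone.

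Flag-actin peaks near starts were few at members and at all genes, and in the knockout lists the shares were close. In control cells 1 of 33 members had one within 1 kb outside IgG (3.03%, against 10.7% of all genes), which was UBTF. The counts were 1 in KO1 (3.03%, against 2.88%), which was PES1, and 2 in KO2 (6.06%, against 6.29%), DKC1 and NOP14. Flag IgG had 0 such members (against 2.76%) and IgG 1 (against 2.66%). The members with Flag-actin peaks in a knockout alone outside IgG were NPM1, NOP58, DKC1, NHP2, NOP2, NOP16 and WDR12, each with 1 peak in 1 of the 2 lists.

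BRG1 and Flag-actin peaks outside IgG were found together in control cells at 9 members (23.1%, against 25.9% of all genes): TCOF1, FBL, POLR1A, UBTF, NOP14, UTP20, BYSL, NOB1 and BOP1. The peaks themselves overlapped at UTP20 (chr12:101365721-101365820 for BRG1) and at BOP1, and at the other 7 the nearest pair lay 201 bp (UBTF) to 35041 bp (POLR1A) apart. The UTP20 pair was narrow and tall, with 36 steps for BRG1 over 100 bp and 42 for Flag-actin over 30 bp. Of the 10 members with the highest-ranked BRG1 peaks, POLR1A, BYSL and FBL had a Flag-actin control peak outside IgG. NOP10, RRP9, RRS1, UTP3, NHP2, NCL and NOLC1 had none, where 38.9% of all genes had one.

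A further 105 ribosome biogenesis genes had BRG1 control peaks at a share like that of the members and knockout peaks at larger shares. Outside IgG the control list held them at 65 (61.9%), the KO1 list at 9 (8.57%) and the KO2 list at 25 (23.8%), with 41 in control alone (39%), against 61.5%, 2.56%, 12.8% and 48.7% of the members and 52.4%, 15.7%, 28.3% and 25.1% of all genes. For Flag-actin the counts were 29 (27.6%), 15 (14.3%) and 28 (26.7%), against 38.9%, 23.8% and 33.4% of all genes. The 3 with the highest-ranked control BRG1 peak were DDX10, an RNA helicase (chr11:108895561-108896590, 1030 bp, 33 steps, percentile 87.1), SBDS, which readies the large subunit for translation (percentile 81.8), and NOL11, a processome protein whose peak covered its start (percentile 80.3). Outside IgG, 4 of the 105 had BRG1 peaks in both knockout lists and in control (3.81%, against 9.15% of all genes): DDX10 with 18 control peaks, 2 in KO1 and 3 in KO2, NOL10 with 1 in each, NOP53 with 3, 1 and 1, and BRIX1 with 2, 1 and 1. None of the 39 members had peaks in all 3 BRG1 lists outside IgG.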

How the data were processed

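CUT&RUN libraries of HCT-116 cells were analysed from the deposited peak lists, 1 per library. The submitters' processing notes name SEACR, MACS2, BWA, deepTools, SAMtools, Trim Galore 0.4.5, bedtools 2.30.0 and FastQC 0.12.0, and hg38; settings and read depths are not given in the sources used here. The deposited values are signal: the lists have the 6 columns of SEACR output, and the total signal and maximum signal of each peak are the authors' own. List names carry 0.01 (antibodies) and 0.005 (IgG), so the IgG lists may have been cut differently. Both IgG libraries were of control cells, and outside IgG means only absence from these lists. Peaks off chromosomes 1 to 22, X and Y (2.11% to 4.04%) were left out. Gene spans and promoters came from RefSeq GRCh38.p14 tables without exons, so peaks were not assigned to exons or UTRs. A peak counted at a gene if it shared 1 bp with the span and 2 kb either side, and was outside IgG if it shared none with either IgG list. Percentiles are the share of the list with lower or equal total signal, the peak itself included. The overlap code gave 0 disagreements with bedtools 2.31.1 over 20037 genes on simulated data. Python 3.11.15, numpy 2.4.6, pandas 2.3.3 and matplotlib 3.10.9 were used.

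The members, other gene lists and alternatives were chosen with earlier results of these data known. Every member is named. Values are given for the 10 with the highest-ranked BRG1 control peak outside IgG, for those with a BRG1 knockout peak or Flag-actin peaks in 2 of 3 lists outside IgG, and for NCL, NPM1 and FBL; of the other pathway genes, the 3 highest-ranked and those in both knockout lists. Other values in the text were added after seeing the data. Promoters are shown for up to 5 members. Coordinates are 1-based. With 1 control library per antibody no test was made.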

Additional observations from a re-analysis of the deposited data

How the results depend on the processing

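Control-only BRG1 members (17, 43.6% against 18.5% of all genes) were 11 within 1 kb of either gene end (28.2% against 20.5%). In the top part of each list by total signal, its upper 50%, they were 9 (23.1% against 17.3%). The excess over all genes was smaller in both. Lists of equal length gave 6 by total signal (15.4% against 7.71%) and 3 by maximum signal (7.69% against 3.73%). Equal length after removing IgG-overlapping peaks (chosen after seeing the data) gave 6 (15.4% against 7.04%). They were 18 without KO1 (46.2% against 21.4%) and 21 without KO2 (53.8% against 29.1%). BRG1 members in control and either knockout (12) were 5 within 1 kb of the ends, 5 and 6 without peaks overlapping either IgG or the same arm's IgG, 7 in the top part, 7 at equal length by total signal, 2 at equal length after removing IgG-overlapping peaks, and 8 to 11 with 1 library left out. Control-only Flag-actin members (2, 5.13% against 10.7%) were 0 and 1 at equal length by total and maximum signal (against 8.65% and 8.55%). At equal length after removing IgG-overlapping peaks they were 0 (against 9.07%). They were 5 without KO1 (12.8% against 14%) and 6 without KO2 (15.4% against 19%). Flag-actin members in control and either knockout (15, 38.5% against 39.6%) were 2 within 1 kb of the ends (5.13% against 5.43%). Without IgG-overlapping peaks they were 8 (20.5% against 25.1%), and in the top part 9 (23.1% against 24.5%). At equal length after IgG removal they were 6 (15.4% against 15.1%). Without KO1 they were 12 (30.8% against 36.3%), and without KO2 11 (28.2% against 31.3%). The median percentile of BRG1 control peaks outside IgG was 31.3 by total and 30.9 by maximum signal. Of the 48 alternative values of these 4 counts, 28 lay within 1.5 times. Of those for genes in both knockouts alone and for the other pathway genes, 54 did and 42 did not. Smaller windows and shorter lists hold fewer peaks by construction; any further cause was not tested.

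No paired analysis was possible because each antibody had 1 control library and 2 knockout libraries. The control libraries also carry no replicate number. Depth is not given, the knockout lists are shorter than the control list for BRG1, and with 1 control library per antibody the spread between control libraries is unknown.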
